A study of Homo sapiens with 2 samples.

Results

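Solute carriers are membrane proteins that move amino acids, sugars, ions, metals, vitamins and nucleosides across the plasma membrane and the membranes of organelles, without splitting ATP. They are numbered in families by sequence, and members of 1 family usually share a kind of substrate. In colon epithelium they take up nutrients and move the sodium, chloride and bicarbonate of fluid transport, and nucleoside carriers of 2 families also carry some pyrimidine drugs. The genes described here were the protein-coding genes with a symbol of the form SLC, number, A, number, and at least 100 reads summed over both libraries. SLC2A1, SLC2A3 and SLC16A3 were left out. The rule gave 227 genes of the 36953 in the files. Of 326 candidates by symbol, the other 99 had fewer than 100 reads, and 28 of these had 0 reads in both libraries. The members comprised 222 carriers in 45 families, sorted into 14 substrate classes, and 5 genes named after a carrier that are not carriers themselves.

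Polyadenylated RNA of 2 colorectal cancer cell lines was sequenced as paired reads. MIP101 is sensitive to 5-fluorouracil (5-FU), a pyrimidine drug, and its cells came from a liver metastasis. MIP/5FU is a resistant clone of MIP101, obtained by passage in rising 5-FU, with an IC50 10-fold that of the parent. Medium of MIP/5FU held 5 µM 5-FU to keep the resistance, and for the last 48 hours or so before RNA isolation neither line received drug or antibiotics. No further genotype is given in the labels. Each line is 1 library and the resistant line is 1 clone, so no difference below has a replicate check, and line, clone, culture and library cannot be told apart. Intervals are exact (Clopper-Pearson) and cover counting error only, since PCR copies without molecular identifiers are not independent molecules. In bulk RNA, fewer cells of a kind and less RNA per cell cannot be told apart.

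Genes held 200141071 reads in MIP101 and 109693681 in MIP/5FU, and members held 1.46% and 1.56% of them. All 12 colon epithelial markers in the files passed the read minimum. Their summed level was 8013 RPM (reads scaled to the total of gene reads) in the sensitive line and 8966 in the resistant one. KRT8 (3309 and 3844 RPM) and KRT18 (2790 and 3307) made up most of that sum. CDX2 had 238 and 214 RPM, LGALS4 1.79 and 0.720, and CDX1 0.475 and 0.474 (95 and 52 reads). Of the 12, KRT20 was called higher in MIP/5FU, by the rule given below for members, and VIL1 and LGALS4 lower. Of 7 hepatocyte markers, 2 passed the minimum, the list summed to 0.874 and 1.53 RPM, and TTR and APOA2 had 0 reads in both libraries. The 6 blood and immune markers summed to 1.59 and 2.43 RPM, and the 7 endothelial and fibroblast markers to 8.78 and 0.720. COL3A1, of that last list, was called lower, with 1659 and 38 reads.

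The ratio of a gene is the log2 of its share of gene reads in MIP/5FU over that in MIP101, after adding 0.5 reads to each count. A member was called at 2-fold or more with a 95% interval that excluded 0. By this measure 5 of 227 members (2.20%) were higher in MIP/5FU, against 2.53% of all 15382 genes tested. The lower calls numbered 12 members (5.29%), against 3.09% of all genes. Calls in either direction made up 7.49% of members and 5.62% of all genes. At 1.5-fold, 29 members (12.8%) were higher and 23 (10.1%) lower, where all genes gave 8.67% and 8.14%. The median log2 ratio was 0.08 over the members and 0.03 over all genes tested. Within 1.5-fold lay 175 of the 227 members (77.1%), against 83.2% of all genes tested. At 2-fold the share of higher calls was near that of all genes and the share of lower calls above it, and at 1.5-fold both shares were above. These differences were not tested.

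Levels between genes are compared as the authors' normalized coverage, the bases of reads per base of gene. SLC25A5, which exchanges ADP and ATP across the inner mitochondrial membrane, stood first in both lines, at 3272 in MIP101 and 3594 in MIP/5FU. SLC25A3, the mitochondrial phosphate carrier, had 1949 and 2007. SLC3A2, the heavy chain that carries several amino acid exchangers to the cell surface, had 1621 and 2525. The 10 members of highest coverage in each line shared 9 genes. SLC7A8 was among the 10 in MIP101 alone and SLC25A39 in MIP/5FU alone. The order of levels was close in both lines over the 227 members (Spearman's rho 0.98, genes that are not replicates and share 2 libraries). Reads of SLC25A5 and SLC25A6 may be split with their many processed copies, those of SLC6A8 with a near-identical copy, and those of SLC2A14 with SLC2A3.

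**Figure D1:**
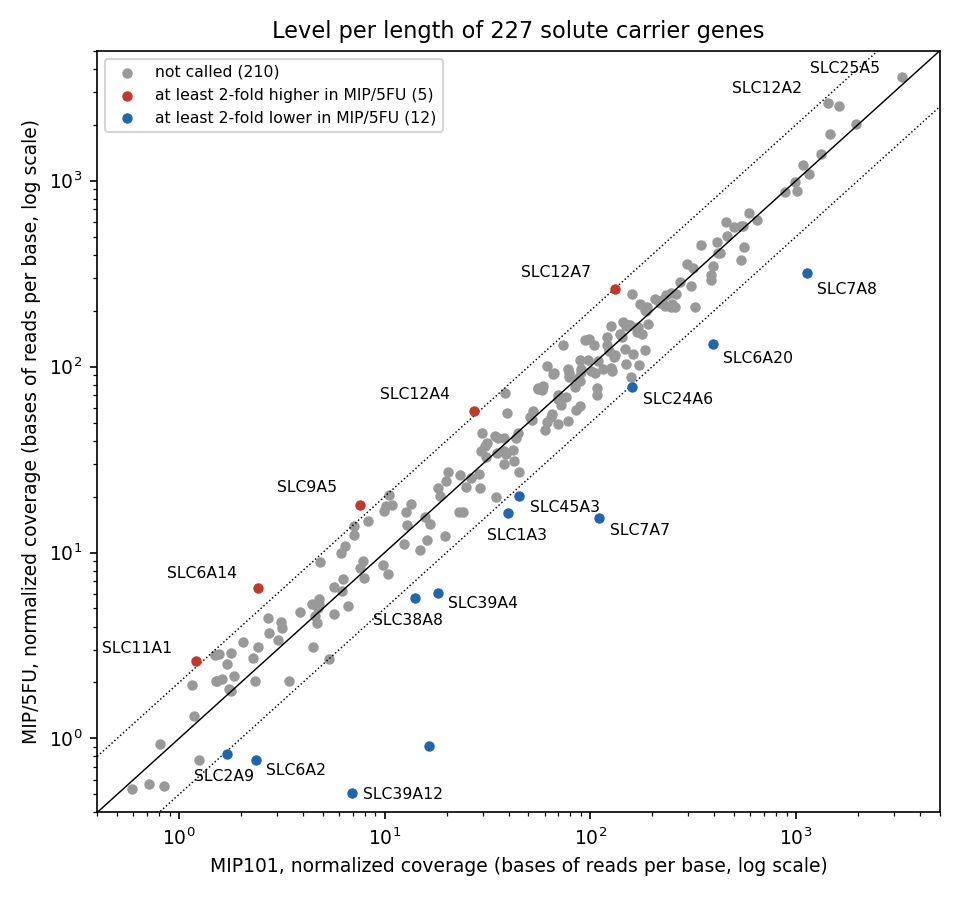
Normalized coverage (bases of reads per base, log axes) of the 227 members in MIP101 and MIP/5FU, 1 library each. The solid line marks equal levels and the dotted lines 2-fold. Red points are the 5 members called higher in MIP/5FU, blue points the 12 called lower, and SLC7A8 and SLC6A20 lie below the dotted line at high coverage.

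Of the 82 members with a mean coverage of 100 or more, 1 was called higher and 3 lower (4.88%), against 1.48% of all genes at that coverage. These were SLC12A7, SLC7A8, SLC6A20 and SLC24A6. Under a mean coverage of 10, the called members were 7 of 57 (12.3%), against 13.5% of all genes. The authors called 181 members expressed in both lines, 8 in MIP101 alone, 3 in MIP/5FU alone and 35 in neither.

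Carriers of amino acids and amine transmitters held the largest number of calls: 6 of 39 members were lower in MIP/5FU, 1 was higher, and the class median was 0.01. Over all genes tested, 3.09% were called lower and 2.53% higher, and no class was tested against these shares. SLC7A8, a light chain that exchanges neutral amino acids, had 117567 reads in the sensitive line and 18502 in the resistant one. Its coverage was 1130 and 320, and its ratio was 3.48-fold lower in MIP/5FU (95% interval 3.43 to 3.54). SLC7A7, the light chain that exports cationic amino acids in exchange for neutral ones, had 6712 and 515 reads and was 7.14-fold lower (6.53 to 7.83). Both proteins work only as pairs with the heavy chain SLC3A2, which had 94003 and 81463 reads, a log2 ratio of 0.66. The other light chains of this heavy chain among the members moved less or the other way. SLC7A5, the main large neutral amino acid exchanger, had a coverage of 1316 and 1396 (log2 ratio 0.11), and SLC7A6 one of 245 and 209 (-0.21). SLC7A11, which imports cystine in exchange for glutamate, had 8557 and 8899 reads (0.92, interval 0.88 to 0.97), just under 2-fold. Summed over these 5 light chains, coverage was 2841 in MIP101 and 2012 in MIP/5FU, and SLC7A8 alone made up most of the difference. Coverage of SLC7A5, SLC7A11 (38.5 and 72.0) and the heavy chain was higher in MIP/5FU.

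The genes of SLC7A7 and SLC7A8 lie 306 kb apart on chromosome 14. The 13 tested protein-coding genes between them had a median log2 ratio of -0.41, from -0.57 to 0.66, and 0 of them were called. Both carriers thus stood below every gene between them. Among the parts of SLC7A7, exon 6 was lower still than the gene. An index was used for such parts: the log2 ratio of the part minus that of its gene. It was called where its size reached 1 and its interval, drawn for an error of 1 in 1000, excluded 0. That interval took the reads of the gene as fixed, and so left out their counting error. Of 1993 exon regions tested in 212 member genes, 2 were called lower and 1 higher, against 0.112% and 0.164% of exon regions of all genes. Exon 6 of SLC7A7 (145 coding bases, chr14:22317842-22317986 of hg18, minus strand) had read equivalents of 485 and 17, an index of -1.09 (-2.52 to -0.05). The junctions on either side of it had 116 and 3 reads and 119 and 2 reads, with indices of -1.35 and -1.88 that were not called at this depth. The neighbouring exon 5 had an index of -0.69 and was not called either. In the last exon, a region with 1156 and 131 read equivalents had an index of 0.57 (0.10 to 0.99) and was not called. With an interval that ends at -0.05, the call of exon 6 was a narrow one. The exon is shown as the part that was lower than the rest of this strongly lower gene, 5′ to 3′, from the GENCODE 29 transcript of the same exon lengths:
SLC7A7 exon 6: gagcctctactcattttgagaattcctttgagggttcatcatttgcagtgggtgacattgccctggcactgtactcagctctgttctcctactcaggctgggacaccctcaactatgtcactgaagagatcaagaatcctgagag

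SLC6A20, a sodium-dependent carrier of proline and other imino acids, had 50133 and 9389 reads, and a coverage of 394 and 132. That was 2.93-fold lower (2.86 to 2.99). SLC1A3, a glutamate carrier best known from astrocytes, had 3595 and 823 reads (2.39-fold lower, 2.22 to 2.59). SLC38A8, which carries glutamine, had 425 and 96 reads (2.42-fold lower, 1.94 to 3.06). SLC6A2, the noradrenaline carrier, had 185 and 33 reads (3.03-fold lower, 2.11 to 4.60), and the authors called it expressed in neither line. SLC6A14, which takes up neutral and cationic amino acids with sodium and chloride, went the other way, with 264 and 384 reads (2.65-fold higher, 2.26 to 3.12). The authors called SLC6A14 expressed in MIP/5FU alone.

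Glutamine carriers of high coverage lay near equal shares in the lines. SLC1A5, the main glutamine carrier of many dividing cells, had a coverage of 1081 and 1218 (log2 ratio 0.19). SLC38A1 and SLC38A2, sodium-coupled glutamine carriers, had log2 ratios of 0.08 and -0.03. SLC1A1, a glutamate carrier of epithelia, differed more, with 13576 and 11758 reads (0.66). SLC43A2, which carries branched-chain amino acids without sodium, had 732 and 795 reads (0.99, interval 0.84 to 1.13), short of the 2-fold threshold. SLC38A4, with 484 and 135 reads, lay on the other side just short of it (-0.97, interval -1.26 to -0.70). SLC43A1, of the same family as SLC43A2, had a log2 ratio of 0.33.

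**Figure D2:**
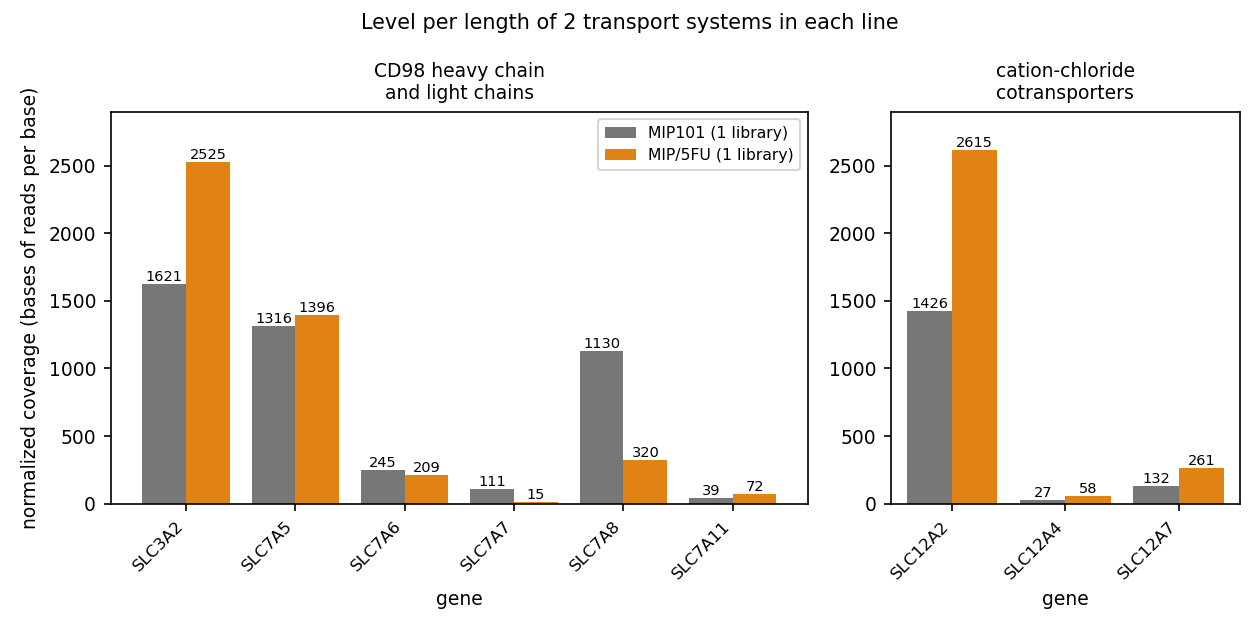
Normalized coverage (bases of reads per base) in MIP101 (grey) and MIP/5FU (orange), 1 library each and so without error bars. Left, the heavy chain SLC3A2 and 5 light chains: SLC7A7 and SLC7A8 were lower in MIP/5FU, SLC3A2 and SLC7A11 higher. Right, cation-chloride cotransporters: in the 3 genes shown the bar of MIP/5FU is the taller one.

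Carriers of acid, base and chloride held 3 of the 5 higher calls and 0 lower calls among 28 members, with a class median of 0.24. All genes gave 2.53% higher and 3.09% lower calls, and the class was not tested against them. Potassium-chloride cotransporters, which let salt leave the cell, were among the higher calls. SLC12A4 had 2415 and 2847 reads (2.15-fold higher, 2.04 to 2.27). SLC12A7 had 16259 and 17897 reads (2.01-fold higher, 1.97 to 2.05), and fell short of 2-fold when scaled by the median ratio, by TMM factors or by the authors' coverage. SLC12A2, the sodium-potassium-chloride cotransporter that brings salt into the cell, had 224768 and 230143 reads, a log2 ratio of 0.90 (0.89 to 0.91). Its coverage of 1426 and 2615 made it the second most covered member in MIP/5FU. Coverage summed over the class was 3110 in MIP101 and 4630 in MIP/5FU, or 7.97% and 11.4% of the coverage of all members, and SLC12A2 made up most of the difference.

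Sodium-hydrogen exchangers, which export acid, were above 0 in 6 of 7 members, with a median of 0.45. SLC9A5 had 676 and 886 reads (2.39-fold higher, 2.16 to 2.65). SLC9A2, an exchanger of gut epithelium, had 9248 and 9079 reads (log2 ratio 0.84) and SLC9A3, also epithelial, had 3502 and 2628 reads (0.45). Bicarbonate carriers of the same class went both ways, from SLC4A4, a sodium-bicarbonate cotransporter, at 0.89 to SLC4A11 at -0.52, and none was called. SLC26A1, a sulfate and oxalate carrier whose exons overlap IDUA on the other strand, was the lowest of the class at -0.67. Without a strand mark in the protocol as described, reads of such overlapping genes cannot be separated.

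SLC4A2, a chloride-bicarbonate exchanger, differed little as a gene (57904 and 36789 reads, log2 ratio 0.21) but had the only member junction called higher. Of 1468 junctions tested in 163 member genes, 1 was higher and 1 lower, against 0.0559% and 0.0997% of junctions of all genes. The junction joins exon 14 to exon 16 and leaves out exon 15 (216 coding bases, a multiple of 3, chr7:150399410-150399625 of hg18, plus strand). In MIP101 it had 3 reads and in MIP/5FU 23, an index of 3.40 (1.03 to 8.03). The authors' table listed 0 Ensembl transcripts, mRNAs and ESTs with this junction. The junctions that keep exon 15 had 378 and 231 reads on its left and 309 and 178 on its right. Skipping made up 0.866% of reads in MIP101 (0.179% to 2.51%) and 10.1% in MIP/5FU (6.50% to 14.8%), taken over the skipping reads and the mean of the 2 junctions that keep the exon. These shares use the same reads that chose the junction, so they describe it and add no support. Most junction reads at this place kept the exon in both lines. The joins are shown since the 26 skipping reads rest on them, 31 bases on each side from GENCODE 29, with the downstream exon in capitals:
SLC4A2 exon 14 to 16: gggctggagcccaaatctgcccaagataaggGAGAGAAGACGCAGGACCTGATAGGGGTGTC
SLC4A2 exon 14 to 15: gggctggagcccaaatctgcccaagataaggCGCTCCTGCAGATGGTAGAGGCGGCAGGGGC

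The 1 member junction called lower lies in SLC12A7 and joins exon 8 to exon 9, with 50 and 23 reads and an index of -1.24 (-2.58 to -0.06). The 22 other tested junctions of the gene had indices from -0.70 to 0.48. Its join is given in the same form, with exon 9 in capitals:
SLC12A7 exon 8 to 9: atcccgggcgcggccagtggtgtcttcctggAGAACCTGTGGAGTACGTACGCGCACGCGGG

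Boundaries between an exon and its intron gave 4 higher and 1 lower call among 480 tested in 114 member genes, against 0.741% and 0.122% over all genes. The higher ones were in SLC38A1 (6 and 19 reads, index 2.37), SLC7A7 (26 and 10, 2.37), SLC12A2 (11 and 42, 1.85) and SLC29A2 (22 and 27, 1.45). The lower one was in SLC25A39 (32 and 2, -2.85). The boundary in SLC7A7 lies within the last exon, where its regions with indices of 1.65 and 0.57 meet, neither of them called. The authors listed 3 Ensembl transcripts and 17 mRNAs with it, so its reads need not come from an intron. The exon region called higher was a stretch of 290 noncoding bases in SLC25A3, with read equivalents of 237 and 309 (index 1.18, interval 0.77 to 1.60), while the 8 tested junctions of that gene had indices from -0.17 to 0.01. The other lower one was in SLC41A3, with 90 and 3 read equivalents.

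Metal carriers had 2 lower calls and 1 higher among 26 members (all genes 3.09% and 2.53%), with a median of -0.02. SLC39A4, the zinc importer of the intestine, had 1106 and 204 reads (2.97-fold lower, 2.56 to 3.47). SLC39A12, a zinc importer known from brain, had 439 and 18 reads (log2 ratio -3.70, interval -4.51 to -3.06). Both were called expressed in MIP101 alone. The other 10 zinc importers among the members lay between -0.60 (SLC39A9) and 0.48 (SLC39A13), and the 12 together had a summed coverage of 2667 and 2577. Their level thus rested on genes other than the called ones, such as SLC39A7 at 559 and 438 and SLC39A14 at 461 and 506. All 6 zinc exporters lay within 1.5-fold, as did 83.2% of all genes tested. SLC11A1, a metal carrier of phagosomes, had 125 and 149 reads (2.17-fold higher, 1.70 to 2.78) and was called expressed in neither line, while SLC11A2, the iron importer of the intestine, had a log2 ratio of 0.00. SLC40A1, the iron exporter, had -0.42, and SLC41A1, a magnesium carrier, had -0.74.

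Among sodium-calcium exchangers, SLC24A6, the exchanger of mitochondria now named SLC8B1, had 11040 and 2975 reads (2.03-fold lower, 1.95 to 2.12). SLC24A1 had a log2 ratio of -0.71, and SLC8A1, the exchanger best known from heart, had 239 and 249 reads and a log2 ratio of 0.93. None of the 3 members lay within 1.5-fold, where 83.2% of all genes tested did, and the 3 did not move one way.

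Monocarboxylate carriers had 1 lower call among 12 members (all genes 3.09%), with a median of 0.00. SLC16A1, the main lactate carrier among them, had a coverage of 1007 and 877 (log2 ratio -0.17), and SLC16A14 had 2924 and 2435 reads (0.60).

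Sugar carriers had 2 lower calls among 18 members (all genes 3.09%), with a median of 0.20. SLC45A3, a carrier known as a prostate marker, had 3537 and 884 reads (2.19-fold lower, 2.04 to 2.36). SLC2A9, a urate carrier, had 82 and 22 reads (2.01-fold lower, 1.26 to 3.44), close to both the read minimum and the fold threshold. SLC5A3, which takes up myo-inositol, had a log2 ratio of -0.59, though its exons overlap MRPS6 on the same strand. All 4 sugar phosphate carriers of family 37 were above 0, from 0.23 to 0.49, and SLC37A4, which brings glucose 6-phosphate into the endoplasmic reticulum, had a coverage of 174 and 218. SLC5A1, the sodium-glucose cotransporter of the intestine, had 153 and 139 reads (0.73).

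**Figure D3:**
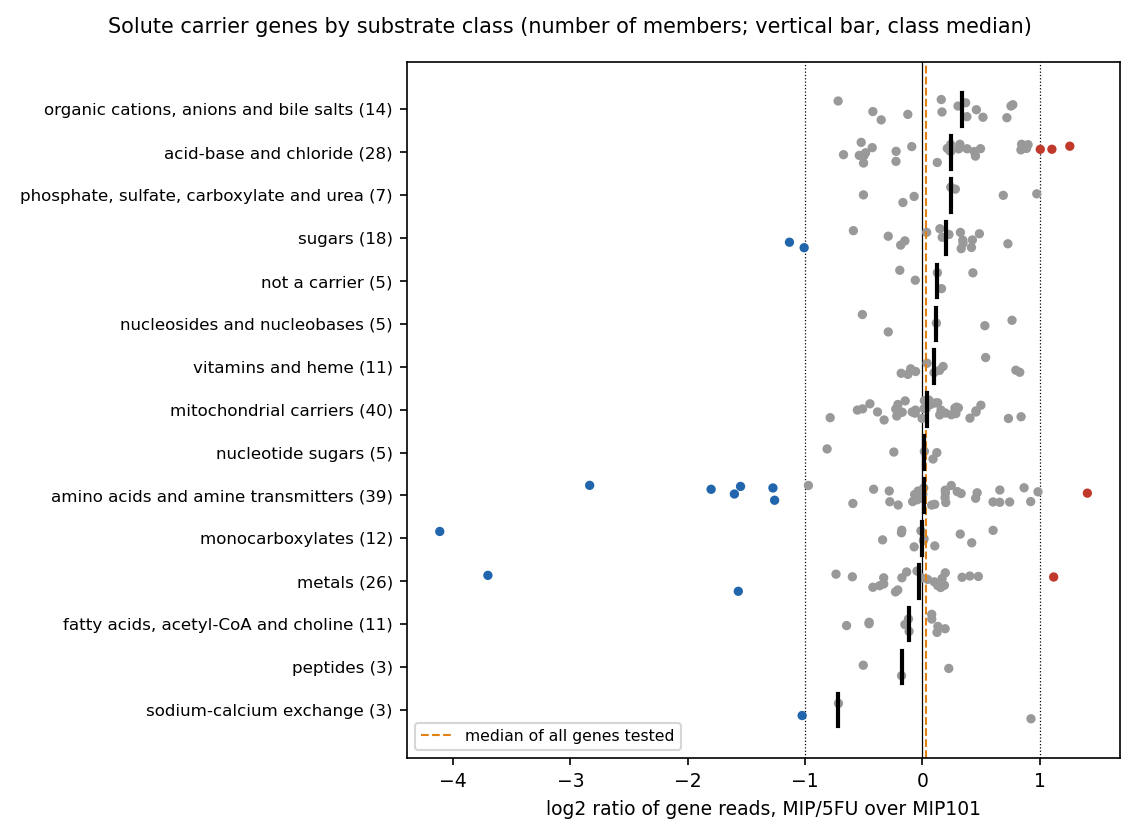
Log2 ratio of gene reads (MIP/5FU over MIP101) of the 227 members by substrate class, with the number of members in brackets and the class median as a bar. Red and blue points are the 5 higher and 12 lower calls, dotted lines mark 2-fold, and the blue points lie in the amino acid, monocarboxylate, metal, sugar and sodium-calcium classes.

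Nucleoside carriers, the families that also carry some pyrimidine drugs, had 0 calls among 5 members. Of all genes 5.62% were called in either direction, so a count over 5 members does not set the class apart. SLC29A1, the main equilibrative nucleoside carrier of the plasma membrane, had 38025 and 14631 reads, a log2 ratio of -0.51 (-0.54 to -0.48), and its coverage was 539 and 372. SLC29A2, the second plasma membrane member, had 22470 and 10072 reads (-0.29) and a coverage of 385 and 310. SLC29A3, of lysosomes, and SLC29A4, which also carries amines, were above 0 at 0.53 and 0.77 but at coverages of 39.2 and 10.8 in MIP101. SLC28A2, a sodium-coupled purine nucleoside carrier, had 284 and 169 reads (0.12, interval -0.16 to 0.40). SLC43A3, which carries purine bases, missed the read minimum with 54 and 33 reads (0.17, interval -0.51 to 0.81). Summed coverage of the 5 members was 979 and 762.

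Folate and vitamin carriers had 0 calls among 11 members, where 5.62% of all genes were called in either direction. SLC19A1, the reduced folate carrier, had 17129 and 8767 reads (log2 ratio -0.10, interval -0.14 to -0.06), SLC46A1, the proton-coupled folate carrier, had -0.12, and SLC25A32, the folate carrier of mitochondria, had 0.06. The thiamine carriers SLC19A2 and SLC19A3 had 0.04 and 0.15. SLC23A3 was the highest of the class at 0.83, but its exons overlap NHEJ1 on the same strand.

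Mitochondrial carriers, the largest class with 40 members, also had 0 calls, where 5.62% of all genes were called in either direction. Among all genes with a mean coverage of 100 or more, that share was 1.48%. Median coverage of the class was 143 for the sensitive line and 124 for the resistant one. A count of 0 calls thus does not set the class apart. Within 1.5-fold lay 37 of the 40 (92.5%), against 83.2% of all genes tested, a share not matched for coverage. They held 35.6% of the coverage of all members in MIP101 and 36.0% in MIP/5FU. The ADP and ATP exchangers SLC25A4, SLC25A5 and SLC25A6 lay between 0.15 and 0.31. The lowest was SLC25A20, which brings acylcarnitine into mitochondria, with 1438 and 457 reads (-0.79), and the highest was SLC25A45, with 458 and 450 reads (0.84). SLC25A33, a pyrimidine nucleotide carrier, had 2064 and 1882 reads, a log2 ratio of 0.73 (0.64 to 0.83). SLC25A36, another carrier of this kind, went the other way at -0.55. SLC25A1, the citrate carrier, had a coverage of 1161 and 1092 (-0.06).

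The remaining classes had 0 calls each, where 5.62% of all genes were called in either direction. Organic cation, anion and bile salt carriers (14 members) had a median of 0.34 (0.17 over the 7 members with at least 500 reads), from SLC22A3 at -0.72 to SLC22A4 at 0.77; SLC10A3 had 5099 and 4000 reads (0.52). Phosphate, sulfate, carboxylate and urea carriers (7 members) ranged from SLC17A5, which exports sialic acid from lysosomes, at -0.50 to the phosphate carrier SLC34A3 at 0.98, and SLC20A1, also a phosphate carrier, had the highest coverage at 308 and 270. Fatty acid, acetyl-CoA and choline carriers (11 members) ranged from SLC44A4 at -0.65 to SLC44A2 at 0.19. Nucleotide sugar carriers (5 members) ranged from SLC35A5 at -0.81 to SLC35A2 at 0.12, with SLC35A4 the highest in coverage at 541 and 568. The peptide carriers were SLC15A1 at 0.23, SLC15A4 at -0.18 and SLC15A2 at -0.50. The 5 members that are not carriers lay between -0.19 and 0.43, and included the scaffold proteins SLC9A3R1 (coverage 647 and 611) and SLC9A3R2.

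Members were also set beside their chromosomal neighbours, as the median log2 ratio of the 40 nearest tested protein-coding genes. Neighbour medians ran from -0.43 to 0.50, and a member and its neighbours had the same sign in 152 of 227 cases (Pearson's r 0.36, Spearman's rho 0.39, over genes that share 2 libraries and overlapping neighbourhoods). Of the 17 called members, 14 had neighbours of the same sign, and 8 lay beyond all 40 neighbours, among them SLC9A5, SLC1A3, SLC6A2, SLC6A20, SLC7A7, SLC39A12 and SLC39A4. The widest neighbour medians beside a called member were -0.41 for SLC7A7 and SLC7A8, -0.39 for SLC45A3 and -0.37 for SLC6A20, each smaller in size than the member's own ratio. SLC9A5 and SLC12A4 lie 672 kb apart on chromosome 16, and the 24 genes between them had a median of 0.21, from -1.64 to 1.07, and 3 of them were called.

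**Figure D4:**
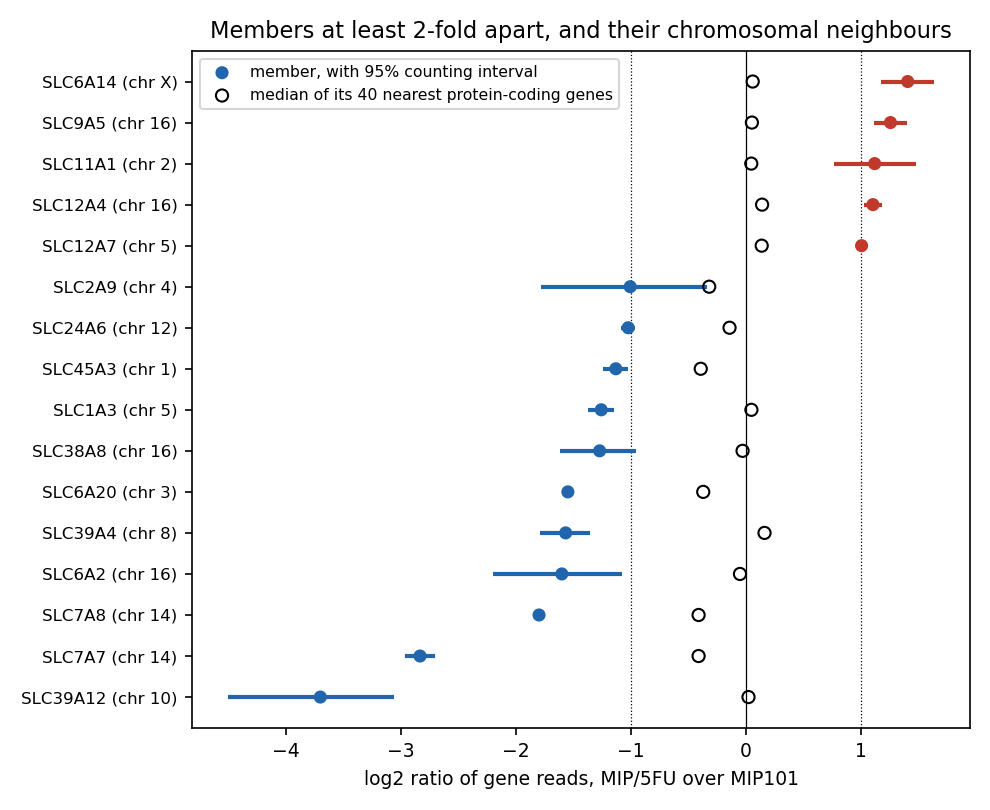
Log2 ratio (MIP/5FU over MIP101) of 16 of the 17 called members with 95% counting intervals (red higher, blue lower) and the median of their 40 nearest protein-coding genes (open circles). The open circles lie between -0.41 and 0.16, nearer to 0 than the member in each row.

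On chromosome 3, 0 of 12 members were above 0, with a median of -0.50, where the other 773 tested protein-coding genes of that chromosome had -0.23. These 12 included SLC6A20, SLC35A5 and SLC25A20, as well as SLC4A7, SLC12A8, SLC25A36 and SLC33A1, which lay between -0.55 and -0.45. On chromosome 9, 9 of 10 members were above 0 (median 0.24, other genes 0.18), and on chromosome 6, 4 of 12 were (median -0.21, other genes -0.26). On chromosome 14, where SLC7A7 and SLC7A8 lie, 1 of 5 members was above 0 (median -0.60, other genes -0.35). Chromosome 4 went the other way: 6 of 9 members were above 0, with a median of 0.16, while its other genes had -0.22. These chromosomes were picked after their values were seen, and the part of such shifts in the members' ratios was not tested.

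Genes that work with the carriers were read from 2 lists, beside the 5.62% of all genes called in either direction. Of 14 sodium and proton pump subunits and partner proteins, 12 were tested, 1 was called higher and 0 lower, with a median log2 ratio of 0.21. BSG, the partner protein of several monocarboxylate carriers, had 0.36. Of 36 carriers with other forms of symbol, 29 were tested. UCP2, a mitochondrial carrier, was higher (173 and 295 reads, 3.11-fold). SLCO2B1, an organic anion carrier, was lower, with 117 reads in the sensitive line and 0 in the resistant one.

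The read minimum lay in sparse counts. The members just inside it were SLC2A14 (72 and 32 reads), SLC2A9 (82 and 22) and SLC22A2 (78 and 39), and the candidates just outside were SLC9A4 (34 and 57), SLC6A12 (62 and 29) and SLC43A3 (54 and 33). Of these, SLC9A4, another sodium-hydrogen exchanger, would have been called higher by its counting interval (0.98 to 2.27).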

How the data were processed

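Each line gave 1 library of randomly primed cDNA from polyadenylated RNA, sheared and amplified by 10 cycles of PCR, per the labels' protocols. The deposited gene, junction and boundary files hold raw read counts, which the authors counted on Ensembl release 53 features of build hg18, per the file names and labels. No aligner is named in these sources. Coverage signal, as deposited, is the bases of reads per feature, and the authors scaled its mean per base by 1 factor per library. Exon region files hold no read counts, unlike the assumption in the design, so coverage was divided by the mean length counted per read (40.4 bases in MIP101, 39.8 in MIP/5FU) to give read equivalents.

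Ratios were computed for every gene reaching 100 reads in sum, with 0.5 reads added. Parts of genes needed 20 reads (junctions and boundaries) or 50 read equivalents (exon regions), and their gene 200 reads in all and 10 per library. Symbols were matched to current names for 226 of 227 members. Sequences came from GENCODE 29 transcripts (GRCh38), matched by exon length, while coordinates are those of the files. Exons of 24 members overlapped another gene.

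The members, substrate classes and lists were chosen with earlier results of these data known. Named members were all called ones, the largest ratio and highest coverage of each class, families 19, 28, 29 and 43, the edge of the read minimum, and genes with a called part. Others, and the groupings by light chain, exchanger or zinc transport, were chosen after their values were seen. The alternatives tried were median-ratio scaling, TMM factors (edgeR 4.0.16, R 4.3.3), the authors' coverage, other minima and folds, and carriers only. Scripts (Python 3.11.15) were tested on simulated data. Some members are counted but not reported by name here.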

Additional observations from a re-analysis of the deposited data

How the results depend on the processing

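No paired analysis was possible because each line has 1 library. The 5 higher and 12 lower members became 4 and 13 with scaling by the median ratio, 4 and 12 with TMM factors or the authors' coverage, and 4 and 9 at 500 reads or more. Without a read minimum they were 13 and 15 of 298 genes, at 1.5-fold 29 and 23, and at 4-fold 0 and 3 (SLC39A12 and SLC7A7 among them). Each of the 3 scalings dropped SLC12A7, and the median ratio added SLC38A4. The limit of 500 reads dropped SLC11A1, SLC2A9, SLC39A12 and SLC6A2. Carriers alone gave the same counts as all members. The scalings moved members by at most 0.03, 0.03 and 0.10 in log2, and of 104 named members SLC25A39 changed sign. Over the scalings and read minima, the median log2 ratio ran from 0.04 to 0.11 for all members, from 0.21 to 0.31 for acid, base and chloride carriers and from 0.17 to 0.38 for organic ion carriers. At 500 reads or more the last of these classes fell below the one before it. Counts of parts of genes were small and moved with each choice. At an absolute index of at least 2, higher junctions, boundaries and exon regions numbered 1, 2 and 0, and lower ones 0, 1 and 1. With the minimum of reads doubled, higher junctions and boundaries numbered 0 and 2, and lower boundaries and exon regions 0 and 1. With the median of features as gene ratio, lower junctions and boundaries numbered 3 and 2, and higher exon regions 2. Low counts limit SLC2A9, SLC6A2 and SLC11A1, and the SLC4A2 junction falls under the doubled minimum.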
